A study of Mus musculus with 6 samples.

Results

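The 10 genes described here carry the signal of insulin and of insulin-like growth factors (IGFs), from 2 receptors to the transcription factors at the end of the pathway, together with 4 IGF binding proteins. They were the rows of the deposited gene table with the symbols Insr, Igf1r, Irs1, Irs2, Igfbp3, Igfbp4, Igfbp5, Igfbp7, Foxo1 and Foxo3, 10 of 54556 genes. All 10 were found, each in 1 row, and 9 of them passed the filter on low values along with 14497 genes in all, while Irs1 stayed below it. The values come from RNA sequencing of whole mouse pancreatic islets, C57BL/6, at 8 weeks of age on normal chow. Of the libraries, 3 are labelled β-Mettl3-KO and carry Mettl3 flox/flox with RIP-Cre, that is Cre under a rat insulin promoter. The other 3 libraries are Mettl3 flox/flox, with no Cre in their label. Both groups therefore carry the floxed Mettl3 allele, and Cre and the deletion come together, so that without a group with Cre alone their effects cannot be told apart. The insulin promoter drives Cre in β cells, and whole islets also hold other cells. The labels do not name animals or pools, so p-values measure only the spread between these libraries, which may be technical.

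Insulin and IGFs bind paired receptor tyrosine kinases, INSR and IGF1R, which phosphorylate the adaptor proteins IRS1 and IRS2. The adaptors bring in PI3K and so switch on AKT, which phosphorylates FOXO1 and FOXO3 and keeps them out of the nucleus. When insulin or IGF signals are low, FOXO factors enter the nucleus and transcribe their targets, Irs2 among them. In mouse β cells IRS2 is known for its part in growth and survival, and FOXO1 for its part in keeping the cells differentiated under metabolic stress. IGF binding proteins hold IGFs outside the cell and limit or prolong their action.

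Irs2, the member with the largest change, and 2 of its paralogs are shown with the sequence before their transcription starts, because the IRS genes turned out to share a short element there. Promoter windows came from RefSeq (GRCm38.p6) and matched 9 of the 10 genes, with no entry for Insr. The windows run from 250 bases before to 50 bases after the RefSeq start. Each was searched on both strands for the insulin response element CAAAACA, which reads TGTTTTG on the opposite strand, for the FOXO core GTAAACA, the E-box CACGTG and the cAMP response element TGACGTCA. Capitals mark the E-box and the insulin response element, the second as it reads on the strand of the gene. Only bases before the start are printed, which are 250 for Irs2 and Irs1 and, for Irs4, the 200 that lie outside its annotated transcript.
Irs2, chr8:11008930-11009179, minus strand: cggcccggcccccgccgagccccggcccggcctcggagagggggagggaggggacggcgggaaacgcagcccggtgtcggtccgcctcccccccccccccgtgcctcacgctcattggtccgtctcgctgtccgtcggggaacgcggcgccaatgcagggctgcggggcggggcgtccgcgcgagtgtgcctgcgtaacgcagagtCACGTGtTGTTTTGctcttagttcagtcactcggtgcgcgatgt
Irs1, chr1:82291440-82291689, minus strand: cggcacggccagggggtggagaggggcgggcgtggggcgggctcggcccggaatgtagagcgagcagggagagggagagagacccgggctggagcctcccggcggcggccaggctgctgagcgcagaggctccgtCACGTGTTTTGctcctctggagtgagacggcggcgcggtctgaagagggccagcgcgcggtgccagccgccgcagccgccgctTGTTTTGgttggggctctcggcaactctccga
Irs4, chrX:141725268-141725467, minus strand: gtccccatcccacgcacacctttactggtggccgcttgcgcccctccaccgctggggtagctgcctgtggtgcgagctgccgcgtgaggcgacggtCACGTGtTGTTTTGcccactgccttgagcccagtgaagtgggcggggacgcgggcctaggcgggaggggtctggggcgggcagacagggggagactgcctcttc

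Irs2 and Irs1 were the only members whose windows held the insulin response element, which 6.28% of all 32851 windows held, and also the only ones with the E-box, held by 7.15%. In the Irs2 window the E-box spans bases -44 to -39 and the insulin response element bases -37 to -31. Positions are counted from the RefSeq start site, and 1 base lies between the motifs. On the minus strand that start follows base 11008930, whereas the Irs2 row measured here starts further downstream, at base 11008458. In the Irs1 window the E-box at -115 to -110 and the element at -111 to -105 overlap by 2 bases, and another element lies at -32 to -26. Irs4 repeats the arrangement of Irs2 at -154 to -149 and -147 to -141, within a run of 17 identical bases, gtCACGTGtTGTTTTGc. Windows in which both start within 12 bases of each other were 9 of 32851, or 0.0274%, and belonged to 8 genes, of which Irs1, Irs2 and Irs4 are 3. That distance was set after the windows had been read. No member window held the FOXO core, found in 3.65% of all windows, or the cAMP response element, found in 1.79%. A match describes these letters and does not show binding. The window of Irs3, the remaining IRS gene, on chromosome 5, held neither the E-box nor the insulin response element.

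The libraries yielded 16719393 to 18387313 reads in those labelled β-Mettl3-KO and 16398862 to 17691055 in flox/flox ones, recovered from the deposited values. Mettl3, the targeted gene, had 4.06, 4.2 and 4.15 scaled FPKM (fragments per kilobase, scaled for library size) in libraries labelled β-Mettl3-KO, against 3.42, 2.89 and 3.93 in flox/flox libraries. The groups did not differ past the threshold, at a log2 difference of 0.25 ± 0.11 (SE, limma adjusted p = 0.12), and Mettl3 was not lower. Values for a whole gene cannot show whether floxed exons were lost, and whole islets also hold cells other than β cells. The deletion is therefore known from the labels only. Mettl3 shares 1561 bases with Tox4 on the other strand, which holds more reads. Marker lists moved as well. B- and plasma-cell markers summed to 1267, 1979 and 1548 scaled FPKM in libraries labelled β-Mettl3-KO, replicates 1 to 3, against 33.4, 16.3 and 24.8 in flox/flox, with all 11 tested higher. Enterocyte markers summed to 138, 747 and 396 against 57.3, 46.2 and 50.7, with all 10 tested higher and Alpi, an intestinal phosphatase named after its values were seen, at 0 reads in flox/flox. The β-cell list, led by Ins2 and Ins1, summed to 125400, 112100 and 115800 against 319500, 257200 and 283900, with 11 of 12 lower. Acinar markers summed to 626, 334 and 459 against 741, 2285 and 1212, with 9 of 10 tested lower and a median log2 difference of -1.5. The part of these shifts in the results below was not tested, except where a value is given.

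Of the 9 members tested, 4 rose (Irs2, Igfbp4, Foxo1 and Foxo3), 2 fell (Igfbp3 and Igfbp7) and 3 did not pass the threshold of a Benjamini-Hochberg adjusted p under 0.05 (Insr, Igf1r and Igfbp5). Over all 14497 genes 16.9% were called higher and 17.2% lower, 34% in total. The median log2 difference was 0.11 for the 9 members and -0.0045 for all genes. The groups did not overlap for 6 of the 9 tested, 4 higher and 2 lower, where 50.5% of all genes did not, 25.1% higher and 25.4% lower. Irs1, untested, did not overlap either. Changes are relative to the typical gene. When libraries were scaled by their own read totals the median of all genes moved to 0.36. Then 7 members were called higher and Igfbp3 was the only one called lower. Of all 14599 genes tested at that scaling, 7643 were called higher and 709 lower. Replicates 2 and 3 of the libraries labelled β-Mettl3-KO held the most enterocyte and lymphocyte transcripts. Without them, which leaves 1 library in that group, fewer members passed, as did fewer of all genes. The members called with all libraries kept their direction there. Log2 differences were 2.42 for Irs2, 0.71 for Igfbp4, 0.65 for Foxo1, 0.54 for Foxo3, -0.18 for Igfbp7 and -1.03 for Igfbp3.

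**Figure D1:**
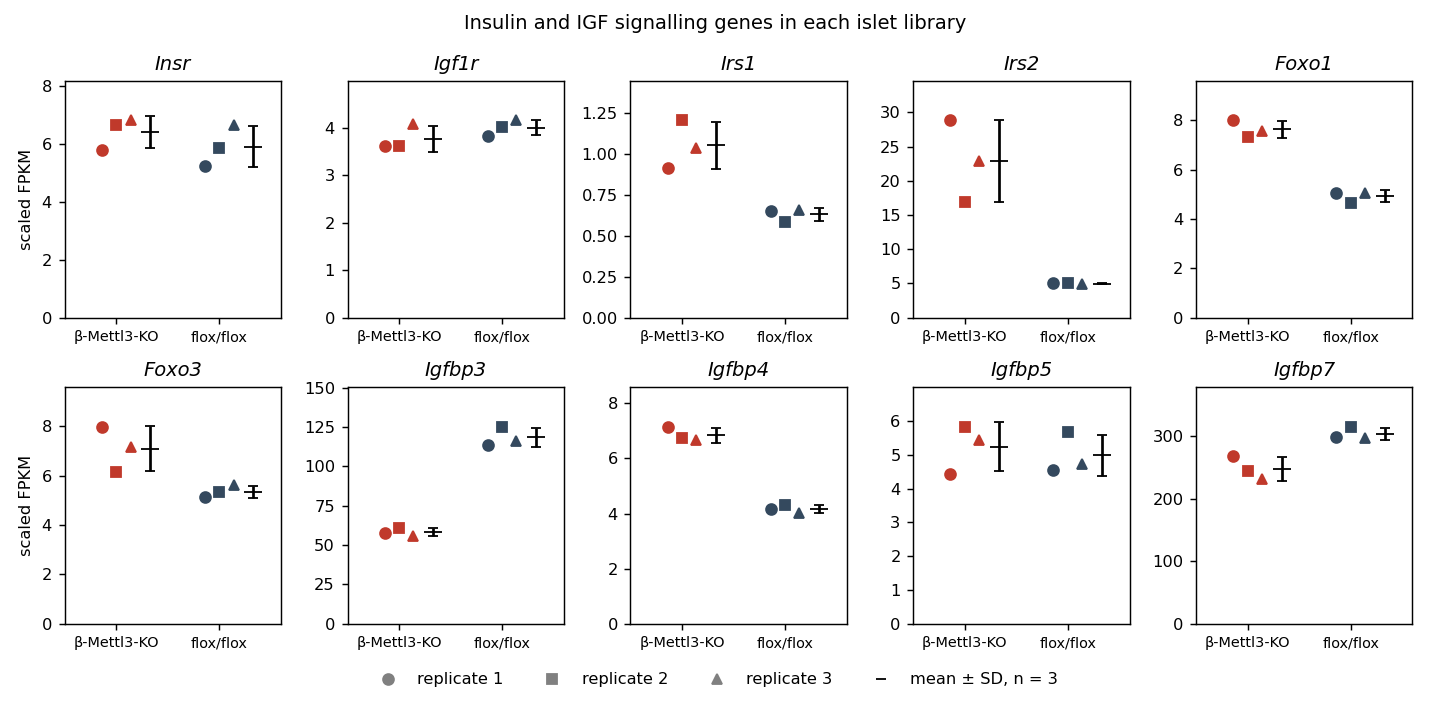
Scaled FPKM of the 10 genes in each library (vertical axes start at 0, 1 panel a gene), with libraries labelled β-Mettl3-KO in red on the left and flox/flox libraries in dark grey on the right. Symbols mark replicates 1 to 3 and bars the mean ± SD (n = 3). Irs2 lies between 16.9 and 28.8 in the red group and near 5 in the grey one, while Insr, Igf1r and Igfbp5 overlap.

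The receptors did not pass. Insr, the insulin receptor (ENSMUSG00000005534, chromosome 8 from 3122061 to 3279617, minus strand, GRCm38), had 5.76, 6.63 and 6.79 scaled FPKM in libraries labelled β-Mettl3-KO, against 5.22, 5.85 and 6.62 in flox/flox libraries. The groups overlapped, and the log2 difference was 0.11 with a 95% interval of -0.14 to 0.36 (limma adjusted p = 0.46). Igf1r, the IGF1 receptor (ENSMUSG00000005533, chromosome 7 from 67952827 to 68233668, plus strand), had 3.62, 3.61 and 4.08 scaled FPKM in libraries labelled β-Mettl3-KO, against 3.84, 4.03 and 4.16 in flox/flox. These too overlapped, with a log2 difference of -0.08 and an interval of -0.27 to 0.12 (limma adjusted p = 0.492). Scaling by read totals gave calls for both, at 0.49 for Insr and 0.28 for Igf1r, whose sign thereby turned (limma adjusted p = 0.0127 and 0.0336). The ratio of Insr to Igf1r, which no library factor changes, was 1.59, 1.83 and 1.66 in libraries labelled β-Mettl3-KO and 1.36, 1.45 and 1.59 in flox/flox ones. All 3 values of the libraries labelled β-Mettl3-KO were above the others, the nearest by a small margin (two-sided exact permutation p = 0.10, the lowest value possible with 3 libraries a group).

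Irs2 rose more than any other member. The gene for insulin receptor substrate 2 (ENSMUSG00000038894, chromosome 8 from 10984681 to 11008458, minus strand) had 28.8, 16.9 and 22.8 scaled FPKM in libraries labelled β-Mettl3-KO, against 5.03, 5.07 and 4.84 in flox/flox libraries. The lowest of the high group was 3.33 times the highest of the low group, and the means of 22.9 ± 5.98 and 4.98 ± 0.124 (SD, n = 3 each) differed 4.59-fold. Behind them stood 3800, 2086 and 2995 reads in the libraries labelled β-Mettl3-KO and 481, 463 and 454 in the flox/flox ones. On the log2 scale Irs2 rose by 2.06 ± 0.18 (SE, limma adjusted p = 0.000584), and it passed in every alternative fit that was run. Over all genes, 2.55% were called higher by at least 2 on that scale.

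Within the libraries labelled β-Mettl3-KO, Irs2 was highest in replicate 1 and lowest in replicate 2. The enterocyte, B-cell, T-cell, ductal and stellate-cell, fibroblast and pericyte marker sums ran the other way, lowest in replicate 1 and highest in replicate 2. The β-cell, alpha-cell, delta-cell, PP-cell, acinar, macrophage and Schwann-cell sums ran in the order of Irs2. The part of these cells in the Irs2 values was not tested. Without replicates 2 and 3 the log2 difference was 2.42 (limma adjusted p = 0.0127). Irs2 shares 609 bases with the antisense transcript 9530052E02Rik, whose 32 to 54 reads per library came to 2.58% of the Irs2 reads.

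Irs1, the other widely expressed substrate (ENSMUSG00000055980, chromosome 1 from 82233101 to 82291416, minus strand), was the least abundant member. It had 0.913, 1.2 and 1.03 scaled FPKM in libraries labelled β-Mettl3-KO, against 0.651, 0.583 and 0.656 in flox/flox libraries. The groups did not overlap, with 174, 215 and 196 reads against 90, 77 and 89, and its mean of 0.84 over all libraries left it just under the filter of 1. The log2 difference was 0.45, and with the filter lowered to 0.5 FPKM, an alternative added after the values were seen, or removed, it did not pass (limma adjusted p = 0.0797 and 0.146). Unlike Irs2, Irs1 was highest in replicate 2 of the libraries labelled β-Mettl3-KO and lowest in replicate 1, the same order as the enterocyte and lymphocyte sums. The ratio of Irs2 to Irs1 was 31.6, 14.0 and 22.1 in libraries labelled β-Mettl3-KO, against 7.73, 8.70 and 7.38 in flox/flox, a log2 difference of 1.43 ± 0.35 (SE, two-sided exact permutation p = 0.10).

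The FOXO factors were modestly higher. Foxo1 (ENSMUSG00000044167, chromosome 3 from 52268336 to 52353221, plus strand) had 7.99, 7.31 and 7.58 scaled FPKM in libraries labelled β-Mettl3-KO, against 5.06, 4.65 and 5.06 in flox/flox libraries. The groups were well apart, the means were 7.63 ± 0.34 and 4.92 ± 0.237 (SD, n = 3 each), and Foxo1 rose by 0.58 ± 0.07 (SE, limma adjusted p = 0.00182). The call held without any 1 library (adjusted p = 0.00532 to 0.0129) and was lost without replicates 2 and 3 of the libraries labelled β-Mettl3-KO together (limma adjusted p = 0.052), at a log2 difference of 0.65.

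Foxo3 (ENSMUSG00000048756, chromosome 10 from 42181841 to 42276755, minus strand) had 7.99, 6.14 and 7.17 scaled FPKM in libraries labelled β-Mettl3-KO, against 5.12, 5.35 and 5.60 in flox/flox. The groups did not overlap, but replicate 2 of the libraries labelled β-Mettl3-KO came close to the flox/flox ones. Foxo3 rose by 0.37 ± 0.10 (SE, limma adjusted p = 0.0336). Its call was lost without any single flox/flox library or without replicate 1 or 3 of the libraries labelled β-Mettl3-KO (limma adjusted p = 0.0681 to 0.105), and also with quantile normalization or no filter (limma adjusted p = 0.0596 and 0.0697). The ratio of Foxo1 to Foxo3 was 1.00, 1.19 and 1.06 in libraries labelled β-Mettl3-KO and 0.989, 0.869 and 0.903 in flox/flox ones. Their nearest values lay close together (two-sided exact permutation p = 0.10).

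**Figure D2:**
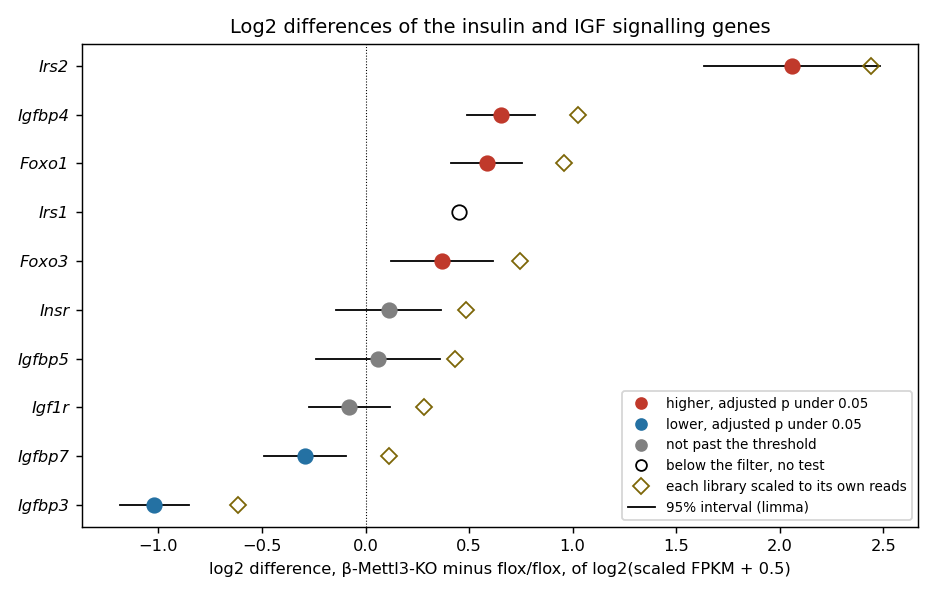
Log2 difference, libraries labelled β-Mettl3-KO minus flox/flox libraries, of the 10 genes (horizontal axis), with the 95% limma interval as a line and the call as the colour of the point. Open diamonds give the difference under scaling by read totals. Irs2 stands at 2.06, Igfbp3 at -1.02, and the diamonds lie to the right of every tested point, past 0 for Igf1r and Igfbp7.

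The binding proteins went in different directions. Igfbp3, which carries most IGF in blood (ENSMUSG00000020427, chromosome 11 from 7206086 to 7213923, minus strand), had 57.5, 60.8 and 56.0 scaled FPKM in libraries labelled β-Mettl3-KO, against 113.8, 125.3 and 116.0 in flox/flox libraries. The groups were far apart, with means of 58.1 ± 2.45 and 118 ± 6.09 (SD, n = 3 each), a 0.491-fold level. Igfbp3 fell by 1.02 ± 0.07 on the log2 scale (SE, limma adjusted p = 0.000247). It passed as lower in every alternative fit, and fell by 0.62 under scaling by read totals. In whole islets, fewer cells of a type and less RNA per cell cannot be told apart.

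Igfbp7, a secreted protein of vessel walls that binds IGF weakly (ENSMUSG00000036256, chromosome 5 from 77349240 to 77408041, minus strand), was the most abundant member. It had 268, 244 and 231 scaled FPKM in libraries labelled β-Mettl3-KO, against 298, 315 and 297 in flox/flox. The groups did not overlap, and Igfbp7 fell by 0.29 ± 0.08 (SE, limma adjusted p = 0.0354). This call was lost in 5 of the 6 fits without 1 library, the exception being replicate 1 of those labelled β-Mettl3-KO (limma adjusted p = 0.0206 without it and up to 0.142 otherwise). The sign turned to 0.11 under scaling by read totals (limma adjusted p = 0.241). Igfbp7 shares 85 bases with Polr2b on the other strand.

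Igfbp4 (ENSMUSG00000017493, chromosome 11 from 99041244 to 99054392, plus strand), known as an inhibitor of IGF action until it is cut by a protease, had 7.16, 6.73 and 6.66 scaled FPKM in libraries labelled β-Mettl3-KO, against 4.18, 4.33 and 4.01 in flox/flox. The groups were far apart and each varied little, and Igfbp4 rose by 0.65 ± 0.07 (SE, limma adjusted p = 0.00109). Igfbp5 (ENSMUSG00000026185, chromosome 1 from 72857932 to 72874884, minus strand), a binding protein that also attaches to matrix, had 4.43, 5.83 and 5.44 scaled FPKM in libraries labelled β-Mettl3-KO, against 4.56, 5.68 and 4.72 in flox/flox. Its groups overlapped, with a log2 difference of 0.06 and an interval of -0.24 to 0.36 (limma adjusted p = 0.736). Scaling by read totals called it higher, at 0.43 (limma adjusted p = 0.0323).

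Ratios within a library showed that the binding proteins changed unequally. Igfbp7 was 37.5, 36.2 and 34.6 times as abundant per length as Igfbp4 in libraries labelled β-Mettl3-KO, against 71.3, 72.8 and 74.0 times in flox/flox, a log2 difference of -1.01 ± 0.04 (SE). The ratio of Igfbp5 to Igfbp3 was 0.0771, 0.0959 and 0.0970 in libraries labelled β-Mettl3-KO, against 0.0400, 0.0453 and 0.0407, a log2 difference of 1.09 ± 0.12. For both ratios the groups were wide apart, with a two-sided exact permutation p = 0.10. Over the 5 ratios computed, all with groups that did not overlap, the Benjamini-Hochberg adjusted permutation p was 0.1, which this design cannot go below.

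Endothelial cells and pericytes of islet vessels are known sources of several binding proteins, and their markers moved too. The endothelial list, led by Plvap, a protein of vessel wall pores, and Esm1, summed to 379, 421 and 372 scaled FPKM in libraries labelled β-Mettl3-KO, against 695, 739 and 719.7 in flox/flox. All 13 tested of 14 fell, with a median log2 difference of -0.76 and a range of -1.30 to -0.49, and none was at 0 in any library. The remaining one, Cldn5, was under the filter and went the other way, with 40, 23 and 22 reads against 1, 15 and 2. In the stellate-cell, fibroblast and pericyte list, led by the pericyte gene Rgs5, 6 of 12 rose, 2 fell and 4 did not pass, with sums of 98.1, 107 and 102 against 130, 149 and 139. Those that fell were the pericyte genes Rgs5 by 0.95 and Pdgfrb by 0.52, and the 6 that rose included the fibroblast genes Dcn at 1.36 and Col1a1 at 1.02. Without Rgs5, left out after its values were seen, the sums were 51.3, 55.9 and 51.9 against 37.8, 50.2 and 42.4, so that Rgs5 carried the lower total. Igfbp3 at -1.02 lay within the endothelial range, and Igfbp7 at -0.29 and Igfbp4 at 0.65 lay outside it. The part of these cells in the binding protein values was not tested.

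**Figure D3:**
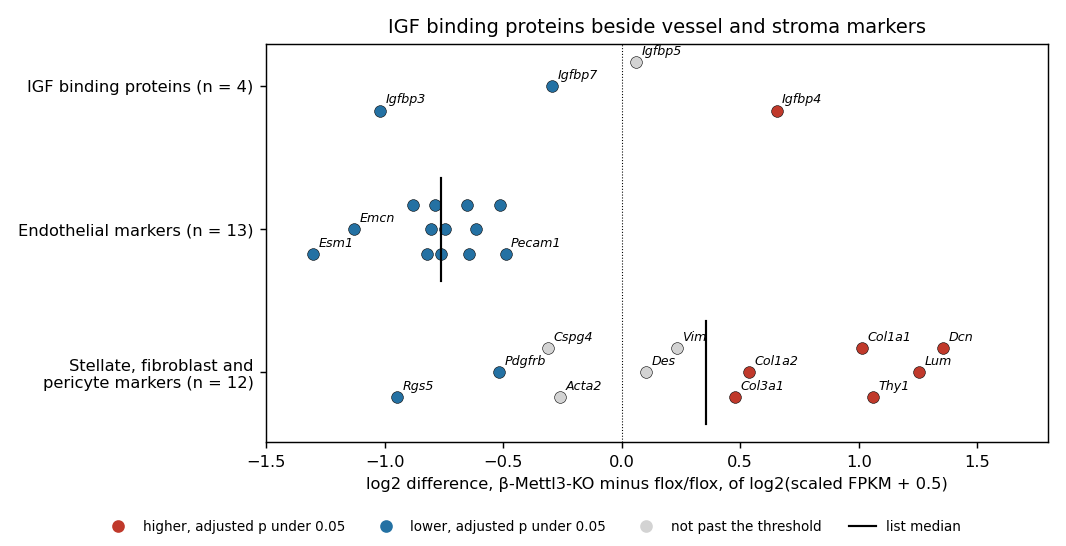
Log2 difference, libraries labelled β-Mettl3-KO minus flox/flox libraries, of the 4 IGF binding proteins (top row), of 13 endothelial markers and of 12 stellate-cell, fibroblast and pericyte markers, 1 point a gene, with the colour giving the call and a vertical line the list median. All endothelial points lie between -1.30 and -0.49, and the stroma markers lie on both sides of 0.

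In order of level per length, Igfbp7 and Igfbp3 led in both groups. Irs2 came next in libraries labelled β-Mettl3-KO, at a mean of 22.9 scaled FPKM, followed by Foxo1, Foxo3, Igfbp4, Insr and Igfbp5 at 7.63, 7.10, 6.85, 6.40 and 5.23. From Foxo1 to Insr, neighbours in that order differed by less than the SD of Foxo3, 0.927. In flox/flox libraries Insr, Foxo3, Igfbp5, Irs2, Foxo1 and Igfbp4 stood at 5.90, 5.36, 4.99, 4.98, 4.92 and 4.17. From Insr to Foxo1, neighbours differed by less than the SD of Insr, 0.703. Igf1r and Irs1 were the 2 lowest in libraries labelled β-Mettl3-KO, at 3.77 and 1.05, and also in flox/flox libraries, at 4.01 and 0.63.

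Of 114 other genes of the pathway in 10 role lists, 95 were tested, of which 20 rose, 14 fell and 61 did not pass. The median log2 difference was 0.08, and over all genes 16.9% rose and 17.2% fell. Without replicates 2 and 3 of the libraries labelled β-Mettl3-KO fewer pathway genes passed in either direction, as did fewer of all genes. The lists were written with earlier results of these data known. Neither IGF ligand reached the filter. Igf1 had 0.145, 0.408 and 0.273 scaled FPKM in libraries labelled β-Mettl3-KO, against 0.354, 0.398 and 0.388 in flox/flox. Igf2 was lower still, at 0.126, 0.134 and 0.169 against 0.116, 0 and 0.0471, and shares its locus with the antisense Igf2os.

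Among the remaining receptors, Insrr, the insulin receptor-related receptor that senses alkaline conditions, had 105, 100.3 and 104 scaled FPKM in libraries labelled β-Mettl3-KO, against 213, 140.4 and 190.3 in flox/flox. It was thus far more abundant per length than Insr in every library, and it fell by 0.79 ± 0.15 (SE, limma adjusted p = 0.00922). That call was lost with scaling by read totals (limma adjusted p = 0.0543). Igf2r, which removes IGF2 from the cell surface, rose by 0.37 ± 0.07 (limma adjusted p = 0.0112), with 11.7, 10.8 and 12.2 against 9.08, 8.34 and 9.14 scaled FPKM, and it lost the call without replicate 3 of the libraries labelled β-Mettl3-KO (limma adjusted p = 0.0532). The antisense Airn covers part of Igf2r.

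Of 10 tested substrates and adaptors 4 rose, 1 fell and 5 did not pass. Dok1, an adaptor that damps receptor signals, rose by 0.69 ± 0.17, Crkl by 0.51 ± 0.13 and Sos1, which loads RAS with GTP, by 0.41 ± 0.08 (SE, limma adjusted p = 0.0223, 0.0222 and 0.0115). Leaving out replicate 1 or 3 of the libraries labelled β-Mettl3-KO ended the calls of Dok1 and Crkl, as did flox/flox replicate 2 or 3 for Dok1 (limma adjusted p = 0.0552 to 0.072) and 1 or 2 for Crkl (0.0599 to 0.0792). Sos1 lost its call without replicate 3 of those labelled β-Mettl3-KO (limma adjusted p = 0.0527). Irs3, Irs4 and Sh2b2 were below the filter. Irs3 had 0.0656 to 0.247 against 0.0576 to 0.237 scaled FPKM, and Irs4 at most 0.00813 against 0.0428. Sh2b2 had 87, 69 and 61 reads in libraries labelled β-Mettl3-KO, against 14, 16 and 11 in flox/flox.

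In the list for IGF binding and release, 2 of 4 tested genes rose and 1 fell. Pappa2, the metalloprotease that cuts IGFBP3 and IGFBP5, had 54.9, 40.1 and 54.0 scaled FPKM in libraries labelled β-Mettl3-KO, against 23.1, 22.3 and 22.2 in flox/flox. Its groups were far apart, and it rose by 1.11 ± 0.13 (SE, limma adjusted p = 0.00135). Htra1, a secreted serine protease, rose by 0.76 ± 0.15 (limma adjusted p = 0.0103), although Fgfr2 on the other strand overlaps it and holds more reads. Stc1, of the stanniocalcin family, fell by 0.64 ± 0.20 (limma adjusted p = 0.0489), a call lost without any 1 library other than flox/flox replicate 2 (limma adjusted p = 0.085 to 0.144). With all libraries kept, scaling by read totals, a pseudocount of 1, a filter of 0.5 FPKM or none, or no variance trend also ended it (limma adjusted p = 0.0514 to 0.228). Igfbp1, Igfbp2 and Igfbp6 were below the filter, with Igfbp2 at 0 reads in all 3 libraries labelled β-Mettl3-KO and at 7, 0 and 3 reads in flox/flox.

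Inhibitors of the receptors moved both ways, with 2 of 10 higher, 3 lower and 5 not past the threshold. Cbl, a ubiquitin ligase, rose by 0.54 ± 0.08, and Ptpn1, the phosphatase PTP1B that acts on INSR, rose by 0.51 ± 0.08 (SE, limma adjusted p = 0.00327 and 0.00412). Ptpn1 had 16.4, 14.6 and 15.6 scaled FPKM in libraries labelled β-Mettl3-KO, against 11.6, 10.2 and 10.5 in flox/flox, without overlap. The receptor phosphatase Ptprf fell by 0.47 ± 0.07 (limma adjusted p = 0.00347), which scaling by read totals ended at -0.07 (limma adjusted p = 0.472).

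Of 18 tested genes for PI3K and AKT, 2 rose, 3 fell and 13 did not pass. Pik3cd, a catalytic PI3K subunit found mostly in leukocytes, had 4.6, 4.8 and 4.82 scaled FPKM in libraries labelled β-Mettl3-KO, against 1.55, 1.46 and 1.17 in flox/flox, and rose by 1.47 ± 0.11 (SE, limma adjusted p = 0.000306). Inpp5d, the lipid phosphatase SHIP1 of blood cells, rose by 0.96 ± 0.11 (limma adjusted p = 0.00155). The T-cell markers summed to 33.5, 60.3 and 47.2 scaled FPKM against 5.21, 2.51 and 2.53, and all 7 tested rose, as did the B-cell list given above. The part of lymphocytes in both genes was not tested. Tbc1d1, a Rab regulator that AKT phosphorylates, fell by 0.37 ± 0.06 (limma adjusted p = 0.00646), and moved to 0.02 with scaling by read totals (limma adjusted p = 0.785).

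The mTOR list had 2 of 16 genes higher, 2 lower and 12 not past the threshold. Rps6kb2, the S6 kinase 2 gene, had 2.92, 3.3 and 1.5 scaled FPKM in libraries labelled β-Mettl3-KO, against 8.70, 5.26 and 5.65 in flox/flox, and fell by 1.22 ± 0.28 (SE, limma adjusted p = 0.0187). Without flox/flox replicate 1, the highest, it did not pass (limma adjusted p = 0.0521). Akt1s1, an mTORC1 inhibitor, fell by 0.49 ± 0.09, and Eif4ebp2, a repressor of cap-dependent translation, rose by 0.35 ± 0.06 (limma adjusted p = 0.00931 and 0.00845). Scaling by read totals ended the Akt1s1 call at -0.10 (limma adjusted p = 0.408).

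In the RAS and MAPK arm 3 of 13 rose, 2 fell and 8 did not pass. The 2 that fell were Map2k2, the gene of MEK2, a kinase that activates ERK, by 0.56 ± 0.07, and Spry4, an inhibitor of receptor kinase signalling, by 0.51 ± 0.10 (SE, limma adjusted p = 0.00203 and 0.01), both named after their values were seen. Under scaling by read totals neither was called, since Rps6kb2 was then the only pathway gene called lower. Dusp6, an ERK phosphatase, had 29.0, 19.8 and 24.4 scaled FPKM in libraries labelled β-Mettl3-KO, against 15.3, 14.1 and 16.2 in flox/flox, and rose by 0.65 ± 0.14 (SE, limma adjusted p = 0.0136). Spry2, of the same family as Spry4, rose by 0.92 ± 0.19 and Dusp4 by 0.92 ± 0.29 (limma adjusted p = 0.0134 and 0.0476). The call of Dusp4 was lost without any 1 library other than replicate 2 of those labelled β-Mettl3-KO (limma adjusted p = 0.0567 to 0.123). That of Dusp6 was lost without replicate 3 of them (limma adjusted p = 0.0516).

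**Figure D4:**
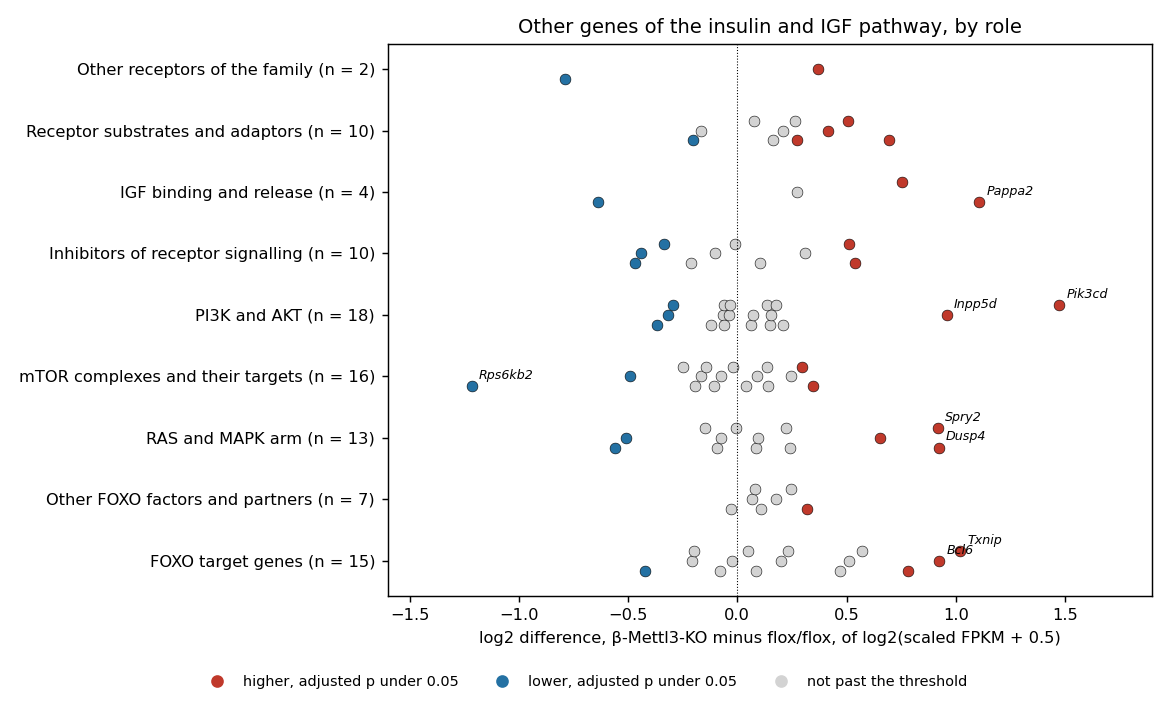
Log2 difference, libraries labelled β-Mettl3-KO minus flox/flox libraries, of the 95 tested genes of the 9 role lists with a tested gene, 1 row a list and 1 point a gene, coloured by call. Most points lie within 0.5 of 0, with Rps6kb2 at -1.22 and Pik3cd at 1.47 at the ends.

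Of 7 other FOXO factors and partners only Sirt1, a deacetylase of FOXO proteins, passed, at 0.32 ± 0.09 (SE, limma adjusted p = 0.0336), a call lost without replicate 1 or 3 of the libraries labelled β-Mettl3-KO or flox/flox replicate 1 or 2 (limma adjusted p = 0.0795 to 0.122). Of 15 tested FOXO target genes 3 rose, 1 fell and 11 did not pass, against 16.9% and 17.2% over all genes. Txnip, an inhibitor of thioredoxin that glucose also raises in islets, had 515, 313 and 403 scaled FPKM in libraries labelled β-Mettl3-KO, against 205, 188 and 201 in flox/flox. It rose by 1.02 ± 0.17 (SE, limma adjusted p = 0.00623). Its order over the libraries labelled β-Mettl3-KO was that of Irs2, which Dusp6 and the β-cell and acinar marker sums also shared. Bcl6, a transcriptional repressor, rose by 0.93 ± 0.18 and Tob1, which restrains growth, by 0.78 ± 0.11 (limma adjusted p = 0.00994 and 0.00325). The call of Bcl6 was lost without replicate 3 of the libraries labelled β-Mettl3-KO (limma adjusted p = 0.0527). Below the filter, Pck1 had 80, 141 and 123 reads in libraries labelled β-Mettl3-KO, against 6, 3 and 0 in flox/flox. G6pc had 2, 48 and 32 against 1, 0 and 0, and Fbxo32 and Trim63 at most 1 in any library. Pck1 and G6pc were lowest in replicate 1 and highest in replicate 2, as were the enterocyte sums. The part of those cells in both was not tested.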

How the data were processed

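RNA from whole islets was sequenced in 3 libraries labelled β-Mettl3-KO and 3 flox/flox ones, grouped by sample title. The submitters' processing notes name DESeq2 1.16.1, featureCounts 1.5.0-p3, HISAT2 2.0.5 and the GRCm38 patch 6 build. Roles, settings and strandedness: not given in the sources used here. The authors deposited 1 table of FPKM values for 54556 genes, with gene lengths. Reads were recovered as FPKM times length over a library's step, set by its 300 lowest values, and 100% came within 0.1 of a whole number. Read counts stand beside the members whose depth matters, and a count of 0 allows up to 3. Median-of-ratios factors over 19623 genes were 1, so the deposited values already carried that scaling and total RNA per cell is unmeasured.

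The filter was a mean of 1 FPKM, and the test limma 3.58.1 (R 4.3.3, variance trend) on log2(FPKM + 0.5), two-sided, with Benjamini-Hochberg adjustment over all 14497, so fold changes of low genes are understated. The script was tested on simulated data. No replicate was a copy of another, the chi-square per degree of freedom within groups being 6.77 to 33.3. Ratios were compared by exact permutation. Members, lists, motifs and tests were chosen with earlier results of these data known. Named were all members, Mettl3, Igf1, Igf2, and up to 3 called genes a role list with the largest differences. Of a marker list the 2 most abundant genes could be named (Alpi, Cldn5, Pdgfrb, Dcn, Col1a1, Map2k2, Spry4 and the genes under the filter were named after their values were seen). Alternatives were scaling, pseudocount, filter, the variance trend, voom on recovered reads, the replicate block and left-out libraries. Promoter windows are RefSeq's. Of the role lists, 1 gene is not reported here. No per-sample column was left unused (0 columns).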

Additional observations from a re-analysis of the deposited data

How the results depend on the processing

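Under scaling by read totals, 7643 genes were called higher and 709 lower, against 2446 and 2489, with 7 members higher and 1 lower and 67 pathway genes higher and 1 lower. The signs of Igf1r (0.28), Igfbp7 (0.11) and Tbc1d1 (0.0234) turned. A filter at 5 FPKM gave 1247 genes higher and 11 pathway genes higher, and no filter left 1 member lower. Without replicates 2 and 3 of the libraries labelled β-Mettl3-KO, where the lone library is assumed to vary like the others, 579 genes were higher and 553 lower. In that fit 2 members (Irs2 and Igfbp4) were higher and 1 lower, pathway genes came to 8 and 2, and Insr and Igfbp5 turned to -0.0245 and -0.15. Leaving out 1 library gave 1310 to 2106 genes higher and 1403 to 2142 lower, 3 to 4 members higher and 1 to 2 lower, and 10 to 21 pathway genes higher and 8 to 13 lower. Igfbp5 ranged from -0.0143, without replicate 2 of those labelled β-Mettl3-KO, to 0.17. The 5 ratios kept their sign in all alternatives run, though the replicate block could not have changed it. Of 569 values of named genes under alternatives, 484 kept direction and side of the threshold, 76 lost the call, 3 gained one and 6 turned. The causes were not tested.

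The replicate block, with library numbers as a factor, gave 2313 genes higher and 2346 lower, 3 members higher and 2 lower, and 19 pathway genes higher and 12 lower, with Foxo3 at 0.37 (limma adjusted p = 0.0537). Same-numbered libraries deviated together with correlations of 0.0423 to 0.0811, all under 0.1, so the numbers were not taken to pair them, although each library correlated best with its own number. For the ratios the block takes differences between same-numbered libraries, whose mean equals the difference of the group means, so it could not change the values. They were 0.21 for Insr to Igf1r, 1.43 for Irs2 to Irs1, 0.23 for Foxo1 to Foxo3, 1.09 for Igfbp5 to Igfbp3 and -1.01 for Igfbp7 to Igfbp4. Each had a two-sided exact sign-flip p = 0.25. Irs1, with 77 to 215 reads a library, is the member whose depth limits it most.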

Other observations

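Mettl3 encodes the enzyme that writes N6-methyladenosine (m6A) on mRNA, at sites of which GGACT is a frequent form. The longest protein-coding transcript of each member (GENCODE M21) was searched for GGACT, and 7 of 10 members held more per kilobase than the median of 1.05 over 11863 tested genes with such a transcript. Irs2 held 11 in 6323 bases, or 1.74 per kilobase, more than 82% of those genes. Igfbp4 followed with 1.57, Foxo1 with 1.5 and Insr with 1.39. Igfbp3 held 1 in 2421 bases, or 0.41 per kilobase, Foxo3 held 0.73 and Igfbp7 0.83. The 3 members below the median were thus Igfbp3 and Igfbp7, called lower, and Foxo3, called higher. Methylation itself was not measured here, and a letter match is no methylated site.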
